A study of Arabidopsis thaliana with 27 samples.

Results

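The 150 genes described here are those that stood furthest above every other line in the vil1-1 cop1-4 mutant of Arabidopsis thaliana during the day. They were chosen from 32678 genes by their mean CPM, read counts scaled to an equal library total, 6 h after lights on (zeitgeber time 6, ZT6), with the reads of each library scaled to their plain total. For each gene, log2(mean CPM + 0.5) of vil1-1 cop1-4 was set against the highest of wild-type Col-0, vil1-1 and cop1-4, and the 150 largest differences were taken. That difference, called the excess below, ran from 0.79 to 2.32 on the log2 scale, with a median of 0.99; over all genes its median was -0.12. Because the ZT6 values chose the genes, everything said about ZT6 is a description with no test, and so is the change from ZT0 to ZT6. The 15 libraries of ZT0, the end of the night, took no part in the choice, and all tests below are on them. By size of the excess, AT4G32510, PAP85 and SAG13 came first. Of the 150 genes, 29 were on at least 1 of the gene lists used here, and no enrichment was tested. The genes described include some that stood out at ZT0 as well (AT4G32510, PAP85, ELIP2), regulators known from stress and wound responses (ERF5, ERF6, ERF13, STZ, SZF1, WRKY40), defence genes, lipid-transfer proteins and glutathione transferases.

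RNA of whole seedlings was sequenced after about a week on MS medium at 22 °C in days of 8 h light and 16 h dark. Col-0, the single mutants vil1-1 and cop1-4, and vil1-1 cop1-4, which carries both alleles, were sampled at ZT0 and ZT6, and hy5-215 at ZT0 alone, in 3 libraries per group and 27 in all. Each genotype is represented by 1 mutant line, and the labels do not say how the lines were crossed. Since the samples are whole seedlings, fewer cells of a type and less RNA per cell cannot be told apart.

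In the dark, COP1, an E3 ubiquitin ligase, targets activators of light signalling to the proteasome, among them HY5, a bZIP factor of photomorphogenesis. VIL1 (VRN5) carries a PHD finger and works together with Polycomb repressive complex 2, the enzyme of the silencing mark H3K27me3. Some genes of the set, such as STZ, SZF1 and ERF6, are known from the rapid general stress response of plants, in which touch, wounding, elicitors and reactive oxygen species induce short-lived transcripts. Among its regulators, WRKY factors bind the W-box, a short promoter element with the core TTGAC, and ERF factors bind the GCC box.

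The libraries held 19737975 to 33562745 reads in genes. VIL1 read 5.61 to 6.06 CPM in vil1-1 cop1-4 and 4.62 to 6.95 in vil1-1 at ZT6, against 17.5 to 20.8 in cop1-4 and 22.0 to 23.9 in Col-0, as the labels say. COP1 was read in both lines with cop1-4 (20.8 to 23.8 and 17.8 to 22.7 CPM at ZT6), and so was HY5 in hy5-215 (14.4 to 14.6 at ZT0), so total reads of these genes do not check those labels.

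Summed over the 150 genes, with library sizes scaled by TMM (the scale of every level below), Col-0 held 532 ± 42.0 CPM at ZT6 (SD, n = 3, as for all levels with ± below), vil1-1 590.1 ± 17.63, cop1-4 1693 ± 271 and vil1-1 cop1-4 3679.7 ± 234. The line next below vil1-1 cop1-4 was cop1-4 for 126 genes, vil1-1 for 20 and Col-0 for 4, so that most of the set was ordered with cop1-4 in between. The median difference of vil1-1 cop1-4 was 2.15 on the log2(mean CPM + 0.5) scale from Col-0, 2.02 from vil1-1 and 1.06 from cop1-4. Most were genes of low or middling level: 55 had a mean under 5 CPM in vil1-1 cop1-4 at ZT6, 78 between 5 and 50, and 17 over 50. For 143 of 150 genes each of the 3 vil1-1 cop1-4 libraries lay above each of the 9 others at ZT6, against 4.44% of all genes with a read at ZT6 (3.44% on plain CPM). The rule used these values, so nothing is read from that count. PRX52, ORA47, AT5G25260, ERF11, AT1G57630, AT3G01830 and AGP5 were the exceptions.

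Within the vil1-1 cop1-4 libraries of ZT6, replicate 2 was the highest for 85 genes and replicate 3 the lowest for 73. Among the cop1-4 libraries, replicate 3 was the lowest for 93 of 150, with a summed level of 1382 CPM against 1816 and 1881 in the others. At the boundary of the set, AT3G47480, AGP5, NUDT4, AT5G03310 and AT3G44120 were the last 5 genes inside, with an excess of 0.80 to 0.79, and CYP707A3, HSPRO2, CYP81D8, AT1G74290 and XTH33 the first 5 outside, with 0.79 to 0.78. The boundary therefore falls in a run of nearly equal values.

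The question that the ZT0 libraries answer is how far the same genes stood out in vil1-1 cop1-4 at the end of the night. The filter on low counts left 21027 genes; it kept all but 9 of the 150, and 6 of those kept passed only because of the vil1-1 cop1-4 libraries. Against cop1-4, the next line for most of them at ZT6, 59 genes were higher and 7 lower in vil1-1 cop1-4 (edgeR quasi-likelihood test, Benjamini-Hochberg adjusted p under 0.05 over 21027 genes), beside 10.1% of all tested genes higher and 7.44% lower. Without those 6 genes the counts were 55 and 7 of 135. The median log2 fold change was 0.40 over the tested genes of the set and 0.00 over all tested genes. Without vil1-1 cop1-4 replicate 2 the lower count fell from 7 to 3, and without cop1-4 replicate 1 to 4, whereas the higher count stayed between 49 and 58 whichever library of either line was left out. Counts of all genes fell too, from 2120 higher to 1603 to 1974 and from 1564 lower to 1075 to 1470. In cop1-4 at ZT0, replicate 1 was the highest library for 75 of the 150 genes.

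Against Col-0, 103 of the 150 were higher and 11 lower in vil1-1 cop1-4 at ZT0, beside 33.6% and 35.6% of all tested genes. Against vil1-1 99 were higher and 10 lower, beside 32.6% and 36.4%. These counts depend on how libraries are scaled, because TMM factors were 1.16 to 1.19 in the Col-0 and vil1-1 libraries of ZT0 and 0.770 to 0.813 in those of cop1-4 and vil1-1 cop1-4. With plain totals, which moved the median log2 fold change of all genes against Col-0 by -0.53, 82 were higher and 24 lower against Col-0, and 83 higher and 26 lower against vil1-1. Of all genes called with plain totals, 18.8% were higher against Col-0 and 18.5% against vil1-1. TMM gave 48.6% and 47.3%. For the called genes of the set, these shares were 77.4% and 76.1% with plain totals, and 90.4% and 90.8% with TMM. The counts against cop1-4 were 59 and 7 under both scalings. Without the 6 genes that passed the filter through vil1-1 cop1-4, 97 were higher than in Col-0 and 93 than in vil1-1. The 3 comparisons share the vil1-1 cop1-4 libraries. For 59 of 150 genes the 3 vil1-1 cop1-4 libraries lay above the 9 libraries of Col-0, vil1-1 and cop1-4 at ZT0, against 4.83% of all genes with a read at ZT0. On plain CPM, the scale of the choice, it was 48 of 150, against 2.45%.

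**Figure D1:**
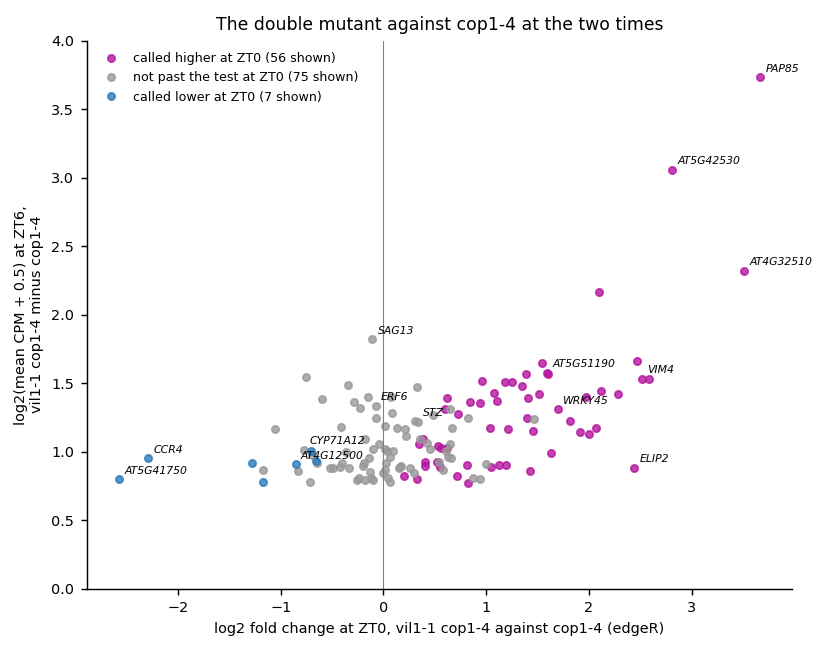
Each point is 1 gene. The horizontal axis gives the edgeR log2 fold change of vil1-1 cop1-4 against cop1-4 at ZT0, and the vertical axis the difference of log2(mean CPM + 0.5) between the same lines at ZT6; colours give the ZT0 call. Of the tested genes 138 are drawn, and 3 are left out that had 3 or fewer reads in cop1-4 at ZT0. All points lie above 0 on the vertical axis, which follows from the choice of genes; along the horizontal axis they spread from -2.58 (AT5G41750) to 3.67 (PAP85).

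Among the genes high at both times, AT4G32510, annotated by RefSeq as a member of the HCO3- transporter family, had the largest excess at ZT6 (2.32). Its levels at ZT6 were 9.27, 8.62 and 9.31 CPM in the 3 vil1-1 cop1-4 libraries, 1.88, 0.769 and 1.59 in cop1-4, 0.469, 0.540 and 1.04 in vil1-1 and 0.268, 0.221 and 0.226 in Col-0. At ZT0 they were 23.9, 24.6 and 23.3 CPM in vil1-1 cop1-4 and 1.78, 2.18 and 2.35 in cop1-4, 1.79, 1.19 and 1.48 in vil1-1 and 0.261, 0.516 and 0.298 in Col-0. The vil1-1 cop1-4 libraries thus lay apart from all others at both times, and the ZT0 log2 fold change against cop1-4 was 3.51 ± 0.18 (SE; edgeR adjusted p = 1.37e-17).

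PAP85, a cupin-family protein related to the vicilin seed storage globulins, followed with 22.0, 30.4 and 21.4 CPM in vil1-1 cop1-4 at ZT6 and 0.724 to 1.999 in cop1-4, 3.87 to 4.30 in vil1-1 and 0.707 to 1.71 in Col-0. At ZT0 its 3 vil1-1 cop1-4 libraries held 123, 131 and 135 CPM, those of cop1-4 9.97, 10.7 and 10.2, of vil1-1 10.7, 8.58 and 15.4, of Col-0 1.72, 2.02 and 4.35 and of hy5-215 31.0, 10.4 and 7.90. No library of another line came near the vil1-1 cop1-4 values, although hy5-215 replicate 1 stood above the other hy5-215 libraries; the log2 fold change against cop1-4 at ZT0 was 3.67 ± 0.44 (SE; edgeR adjusted p = 1.77e-04). ELIP2, an early light-induced protein of the thylakoid membrane that protects plastids under strong light, had the smallest adjusted p against cop1-4 at ZT0. It read 136, 134 and 135 CPM in vil1-1 cop1-4, 26.8, 25.2 and 23.2 in cop1-4, 2.61, 2.75 and 3.35 in vil1-1 and 0.374, 0.473 and 0.744 in Col-0. Each line stood apart from the next in that order, and both single mutants were past the test against Col-0. On the log2 scale the difference was 2.44 ± 0.20 (SE; edgeR adjusted p = 1.87e-11) for vil1-1 and 5.50 ± 0.14 (SE; edgeR adjusted p = 1.51e-28) for cop1-4. Against cop1-4, vil1-1 cop1-4 was higher by 2.44 ± 0.07 (SE; edgeR adjusted p = 8.11e-25). At ZT6 the values were smaller in both lines with cop1-4, at 10.9, 7.43 and 5.74 CPM in cop1-4 and 16.4, 14.0 and 15.2 in vil1-1 cop1-4.

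VIM4, of the VIM family of RING-finger proteins that bind methylated DNA, read 11.9, 10.8 and 12.5 CPM in vil1-1 cop1-4 at ZT0 and 2.46, 1.45 and 2.25 in cop1-4, a log2 fold change of 2.52 ± 0.20 (SE; edgeR adjusted p = 5.93e-12). The gene is nearly identical to VIM2, and reads aligned to more than 1 place were left out, so its level is uncertain. At ZT6 the values were 5.47, 6.14 and 5.57 CPM in vil1-1 cop1-4 and 1.303, 2.26 and 1.4 in cop1-4, again without overlap. AT5G42530, an uncharacterised gene, stood at 48.2, 43.3 and 38.6 CPM in vil1-1 cop1-4 at ZT0, while Col-0, vil1-1 and cop1-4 ranged from 3.86 to 7.42. The libraries with both alleles lay apart, with a log2 fold change of 2.81 ± 0.24 (SE; edgeR adjusted p = 7.48e-06) against cop1-4. At ZT6 it read 47.6, 58.7 and 38.7 CPM in vil1-1 cop1-4 and 10.9 to 18.21 in Col-0. WRKY45, a WRKY transcription factor, read 51.3, 48.5 and 49.3 CPM in vil1-1 cop1-4, 15.2, 16.0 and 15.1 in cop1-4, 8.73, 14.2 and 10.7 in vil1-1 and 7.02, 7.06 and 6.36 in Col-0 at ZT0. The 4 lines did not overlap, and vil1-1 cop1-4 lay 1.696 ± 0.10 (SE; edgeR adjusted p = 9.98e-14) above cop1-4 on the log2 scale.

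Enzymes and wall proteins were among the genes high at both times. SDH1-2, a flavoprotein subunit of mitochondrial succinate dehydrogenase, held 43.5, 42.6 and 40.3 CPM in vil1-1 cop1-4 at ZT0, 16.9, 15.4 and 17.9 in cop1-4 and 1.303 to 2.02 in Col-0. Against cop1-4 the log2 fold change was 1.34 ± 0.10 (SE; edgeR adjusted p = 1.42e-12). NIT4, the nitrilase that converts beta-cyanoalanine formed when cyanide is detoxified, held 56.0, 59.4 and 61.4 CPM in vil1-1 cop1-4 and 28.7, 28.8 and 25.6 in cop1-4, 1.102 ± 0.08 (SE; edgeR adjusted p = 2.88e-13). For XTH25, a xyloglucan-remodelling enzyme of the cell wall, the values were 38.7, 44.3 and 43.7 CPM in vil1-1 cop1-4 and 14.3, 15.7 and 17.9 in cop1-4, a log2 fold change of 1.41 ± 0.10 (SE; edgeR adjusted p = 4.89e-13). In each of the 3 genes the vil1-1 cop1-4 libraries lay above all cop1-4 libraries at both times. All 3 stood lower at ZT6 than at ZT0 in vil1-1 cop1-4, with means of 17.62 ± 1.68, 16.1 ± 2.29 and 6.48 ± 2.28 CPM. AZI1, AT2G25510, MPL1, MOT1, AT4G27280 and AT3G56880 were also higher than in cop1-4, with log2 fold changes against cop1-4 at ZT0 of 1.03, 1.08, 0.84, 1.04, 0.40 and 0.33. AT4G27280 was no longer past the threshold without cop1-4 replicate 1 or 2, or vil1-1 cop1-4 replicate 2 or 3. With all 27 libraries in the fit, the calls of AT4G27280 (edgeR adjusted p = 0.0952) and AT3G56880 (edgeR adjusted p = 0.123) were lost.

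An uncharacterised gene, AT3G43850, had 0 reads in all 6 cop1-4 libraries and was read in every other group. At ZT0 it held 5.90, 5.25 and 5.84 CPM in Col-0, 7.41, 8.95 and 6.13 in vil1-1, 11.1, 13.9 and 13.5 in vil1-1 cop1-4 and 11.4, 11.99 and 15.6 in hy5-215. Against a floor of 3 counts over the 3 cop1-4 libraries, vil1-1 cop1-4 (804 reads) was at least 245-fold higher at ZT0, and at ZT6 (183 reads) at least 46.0-fold. Since vil1-1 cop1-4 carries the same cop1-4 allele, the absence in the single mutant was not matched in the line with both alleles. AT3G58210, a TRAF-like family gene, had 0 reads in Col-0 and cop1-4 at both times and 89 in vil1-1 cop1-4 at ZT0, at least 27.1-fold more than cop1-4; it was chosen for mention after its values were seen.

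The set was split by its ZT0 call against cop1-4. The 59 genes already higher than cop1-4 at ZT0 went both ways from ZT0 to ZT6 in vil1-1 cop1-4: 26 of 59 stood higher at ZT6, 12 of them by at least 2-fold, while others, ELIP2 and PAP85 among them, stood lower. Their median change was -0.10 on the log2(mean CPM + 0.5) scale. This was close to -0.13 in Col-0, -0.23 in vil1-1 and -0.25 in cop1-4. The 75 genes not past the test at ZT0 had a median change of 1.26 in vil1-1 cop1-4, where 71 of 75 stood higher at ZT6 and 44 by at least 2-fold. In the other lines the same genes had medians of -0.31 (Col-0), -0.35 (vil1-1) and 0.14 (cop1-4), and 13 of 75 were at least 2-fold higher at ZT6 in cop1-4. A gene chosen for being high in vil1-1 cop1-4 at ZT6 and not at ZT0 must differ between the times there, so this direction follows from the choice. The choice and the split by ZT0 call also bear on the size of the change in each part of the set. Nothing is therefore read from the contrast of these medians in vil1-1 cop1-4. The values of the other lines are given beside them. The 7 genes lower than cop1-4 at ZT0 (AT1G26420, AT1G26380, CCR4, AT5G41750, XBAT34, AT4G12500 and AT4G20000) had a median change of 1.85 in vil1-1 cop1-4 and -1.59 in Col-0.

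**Figure D2:**
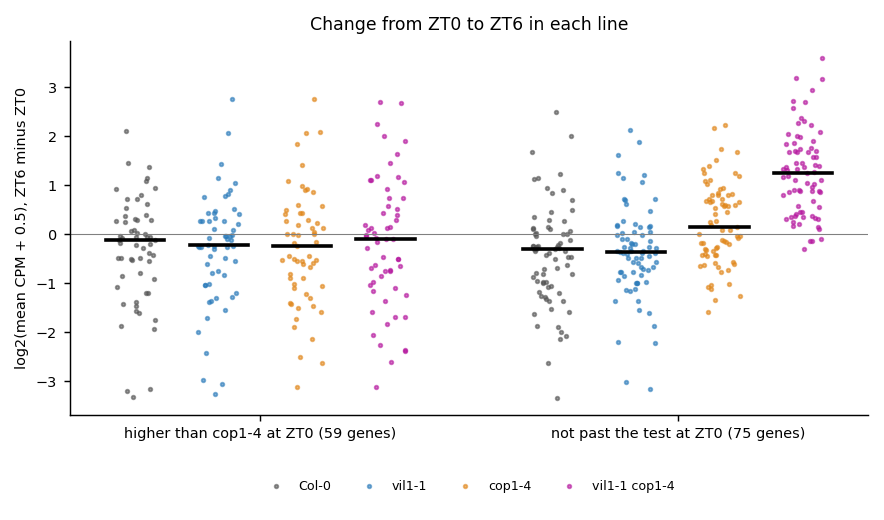
Points are genes, placed by the difference of log2(mean CPM + 0.5) between ZT6 and ZT0 in each of 4 lines; black bars are medians. Genes already higher than cop1-4 at ZT0 (left) have medians between -0.25 and -0.10 in all lines, and those not past the test (right) have a median of 1.26 in vil1-1 cop1-4, with cop1-4 at 0.14.

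Regulators of the rapid stress response were found among both kinds. Of the 25 genes on the touch and rapid wound list, 7 were in the set (ERF13, DIC2, STZ, SZF1, RHL41, CML38 and CZF1) and 15 of 25 had all 3 vil1-1 cop1-4 libraries above the 9 others at ZT6 on plain CPM, beside 3.44% of all genes with a read. The genes of the set were chosen on these ZT6 values, so nothing is read from that count. At ZT0, of 23 tested, 3 were higher and 4 lower in vil1-1 cop1-4 than in cop1-4, beside 10.1% and 7.44% of all tested genes. The median log2 fold change was -0.14 beside 0.00 for all genes. The summed level of the list at ZT6 was 204 to 213 CPM in Col-0, 209 to 215 in vil1-1, 596 to 737 in cop1-4 and 857 to 1189 in vil1-1 cop1-4.

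STZ, also called ZAT10, a zinc-finger repressor induced by salt, cold and strong light, read 88.1, 92.3 and 65.8 CPM in vil1-1 cop1-4 at ZT6 and 48.1, 34.9 and 22.0 in cop1-4. In vil1-1 it read 3.29, 3.54 and 4.58, and 2.85, 2.48 and 2.39 in Col-0. The lines with cop1-4 lay above the others and did not overlap each other, and replicate 3 was the lowest library in each. At ZT0 the values were 16.4, 15.8 and 24.5 CPM in vil1-1 cop1-4 and 14.6, 14.9 and 15.5 in cop1-4, a log2 fold change of 0.34 ± 0.13 (SE; edgeR adjusted p = 0.0710). SZF1, a tandem CCCH zinc-finger protein of the salt response, went from 38.5, 44.0 and 48.0 CPM at ZT0 to 118, 132 and 82.3 at ZT6 in vil1-1 cop1-4, while Col-0 went from 28.4, 26.2 and 28.5 to 11.2, 11.1 and 11.3. Its level moved up over the day in vil1-1 cop1-4 and down in Col-0 and vil1-1 (10.5, 11.4 and 12.7 at ZT6), with cop1-4 at 61.7, 53.7 and 37.1. At ZT0 it was not past the test against cop1-4 (log2 fold change 0.22 ± 0.08 SE, edgeR adjusted p = 0.0737). CZF1, its close relative, and RHL41 (ZAT12), a zinc-finger regulator of oxidative and cold stress, stood at 99.6 ± 13.4 and 26.0 ± 5.82 CPM in vil1-1 cop1-4 at ZT6 and 57.2 ± 12.7 and 12.8 ± 3.42 in cop1-4. DIC2, a mitochondrial dicarboxylate carrier induced by the same stimuli, read 55.9, 66.6 and 42.6 CPM in vil1-1 cop1-4 at ZT6, 29.0, 24.04 and 14.2 in cop1-4 and 2.65 to 3.102 in Col-0. It was higher than cop1-4 at ZT0 too (log2 fold change 0.72 ± 0.18 SE, edgeR adjusted p = 0.00396), a call lost with all 27 libraries in the fit (edgeR adjusted p = 0.0910). CML38, a calmodulin-like calcium sensor, held 6.84, 8.12 and 5.63 CPM in vil1-1 cop1-4 and 3.19, 4.05 and 2.47 in cop1-4 at ZT6.

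The AP2/ERF family contributed 10 of the 150 genes (6.67%), beside 0.583% of all protein-coding genes by RefSeq product names. ERF6, a target of stress-activated MAP kinases, differed little at ZT0, with 8.71, 7.25 and 5.37 CPM in vil1-1 cop1-4, 9.28, 6.75 and 6.76 in cop1-4 and 9.79, 8.74 and 9.34 in Col-0. At ZT6 it stood at 65.8, 63.9 and 43.5 CPM in vil1-1 cop1-4, 30.0, 23.2 and 14.6 in cop1-4, 5.63, 6.63 and 7.39 in vil1-1 and 4.40, 4.69 and 4.2 in Col-0. At ZT0 the log2 fold change was -0.08 ± 0.16 (SE; edgeR adjusted p = 0.811) against cop1-4, whose libraries overlap those of vil1-1 cop1-4. Against Col-0 it was -0.41 ± 0.15 (SE; edgeR adjusted p = 0.0172), a call that was lost without Col-0 replicate 1 or vil1-1 cop1-4 replicate 3. At ZT6 the 4 lines fall in separate ranges, with vil1-1 just above Col-0. ERF5, a paralogue, read 37.7, 34.8 and 23.7 CPM in vil1-1 cop1-4 and 19.5, 13.7 and 8.96 in cop1-4 at ZT6. At ZT0 it read 5.21, 4.52 and 3.67 in vil1-1 cop1-4 and 2.98, 3.74 and 4.89 in cop1-4 (log2 fold change 0.20 ± 0.17 SE, edgeR adjusted p = 0.450). ERF13 was nearly silent except in vil1-1 cop1-4 at ZT6: 3.59, 3.76 and 1.86 CPM there, and 0.0933 to 0.643 in the other 9 libraries of that time. It had too few reads at ZT0 to be tested. AT5G51190, which encodes an AP2/ERF protein and overlaps another gene, was also higher at ZT0, at 5.16, 5.12 and 7.34 CPM against, in cop1-4, 1.72, 2.4 and 1.74 (log2 fold change 1.59 ± 0.23 SE, edgeR adjusted p = 2.07e-06). At ZT6 it read 31.5, 32.1 and 26.3 in vil1-1 cop1-4 and 13.7, 9.12 and 6.35 in cop1-4.

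ERF4 and ERF11, repressors with an EAR motif, stood at 62.0 ± 10.6 and 2.45 ± 1.22 CPM in vil1-1 cop1-4 at ZT6 and 34.9 ± 7.06 and 1.101 ± 0.510 in cop1-4. At ZT0 ERF4 was also higher, by a log2 fold change of 0.20 ± 0.07 (SE; edgeR adjusted p = 0.0401), which was lost without cop1-4 replicate 1 or 3, or vil1-1 cop1-4 replicate 2 or 3, with DESeq2, and with other groups in the fit. ORA47, a regulator of jasmonate synthesis, varied between replicates, with 20.9, 15.7 and 8.29 CPM in vil1-1 cop1-4 and 8.64, 4.203 and 3.22 in cop1-4 at ZT6, so that the lines overlap. ACS6, an ACC synthase of the rate-limiting step of ethylene synthesis, read 28.5, 30.8 and 20.3 CPM in vil1-1 cop1-4 and 16.4, 8.71 and 7.19 in cop1-4 at ZT6, and ACS2, another, 2.67, 2.72 and 4.76 and then 1.26, 1.49 and 1.35. Neither was past the test against cop1-4 at ZT0, with log2 fold changes of 0.48 ± 0.18 for ACS6 and 0.64 ± 0.24 for ACS2 (SE). CBF1 and CBF2, the AP2/ERF activators of cold acclimation, are near-identical neighbours. Reads aligned to more than 1 place were left out, so their levels are uncertain. CBF2 held 7.80, 9.31 and 7.64 CPM in vil1-1 cop1-4 at ZT6 and 3.67, 3.13 and 2.75 in cop1-4. At ZT0 it held 2.01, 3.81 and 4.80 in vil1-1 cop1-4 and 1.203, 1.51 and 1.36 in cop1-4 (log2 fold change 1.39 ± 0.28 SE, edgeR adjusted p = 3.20e-04). CBF1 reached 2.87, 3.81 and 2.54 CPM at ZT6 and was not tested at ZT0. On the cold response list of 15 genes, 6 of 10 tested were higher and 1 lower than cop1-4 at ZT0, beside 10.1% and 7.44% of all tested genes, with 4 of the list in the set. The list as a whole was not highest in vil1-1 cop1-4 at ZT6, where its summed level was 912 to 1042 CPM, against 1242 to 1331 in vil1-1, 792 to 944 in Col-0 and 654 to 693 in cop1-4.

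The promoters of the set were searched for 9 short words in the 250 bases before and 50 bases after each annotated start, on both strands, in the TAIR10.1 assembly of RefSeq. The W-box core TTGAC was in 69.1% of 149 protein-coding genes of the set and in 50.5% of all 27443 protein-coding genes. Among genes already higher than cop1-4 at ZT0 it was in 58.6% of 58, and among the other tested genes in 78.0% of 82. The heat element GAANNTTC was in 19.5% against 11.6%, and the GCC box AGCCGCC in 2.68%, that is 4 genes (GSTU12, AACT1, MKK9 and NIT4), against 0.794%. The TGA word TGACG, which can share bases with TTGAC, was in 30.2% against 23.1%, and the G-box CACGTG in 9.40% against 7.68%. The abscisic acid element ACGTGGC was in 6.04% against 4.08%, the evening element AAATATCT in 8.72% against 5.65%, the telobox AAACCCTA in 4.03% against 6.22% and the GA repeat GAGAGAGA in 8.72% against 8.38%. These shares describe letters, not binding. The 250 bases before the start are shown for 3 regulators and receptors of the rapid response that hold 3 or 4 W-box cores, and for NIT4 with its GCC box. They were chosen after the words were counted. Capitals mark TTGAC or its reverse complement GTCAA, and in NIT4, which also holds both forms of the W-box core, the reverse complement GGCGGCT of the GCC box.
SZF1 (chr3:20775970-20776219, plus strand): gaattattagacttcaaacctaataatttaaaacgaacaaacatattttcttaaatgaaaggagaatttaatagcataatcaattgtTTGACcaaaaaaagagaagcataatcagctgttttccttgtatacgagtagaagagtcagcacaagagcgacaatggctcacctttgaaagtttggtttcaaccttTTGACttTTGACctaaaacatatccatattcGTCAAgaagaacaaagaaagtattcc
FRK1 (chr2:8329945-8330194, minus strand): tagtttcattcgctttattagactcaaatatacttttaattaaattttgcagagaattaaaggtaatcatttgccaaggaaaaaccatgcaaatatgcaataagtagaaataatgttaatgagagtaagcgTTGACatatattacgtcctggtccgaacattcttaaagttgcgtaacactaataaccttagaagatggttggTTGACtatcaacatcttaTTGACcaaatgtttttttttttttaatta
WRKY30 (chr5:8154711-8154960, minus strand): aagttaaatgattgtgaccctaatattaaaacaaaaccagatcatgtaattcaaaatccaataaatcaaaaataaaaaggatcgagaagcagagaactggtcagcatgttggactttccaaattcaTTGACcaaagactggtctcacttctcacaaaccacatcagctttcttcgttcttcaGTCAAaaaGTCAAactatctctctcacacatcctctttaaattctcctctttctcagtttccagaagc
NIT4 (chr5:7378937-7379186, plus strand): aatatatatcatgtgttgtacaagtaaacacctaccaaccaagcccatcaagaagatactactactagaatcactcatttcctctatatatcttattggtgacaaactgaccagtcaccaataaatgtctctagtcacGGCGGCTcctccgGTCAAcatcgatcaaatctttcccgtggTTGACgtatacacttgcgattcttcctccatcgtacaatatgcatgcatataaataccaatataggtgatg

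**Figure D3:**
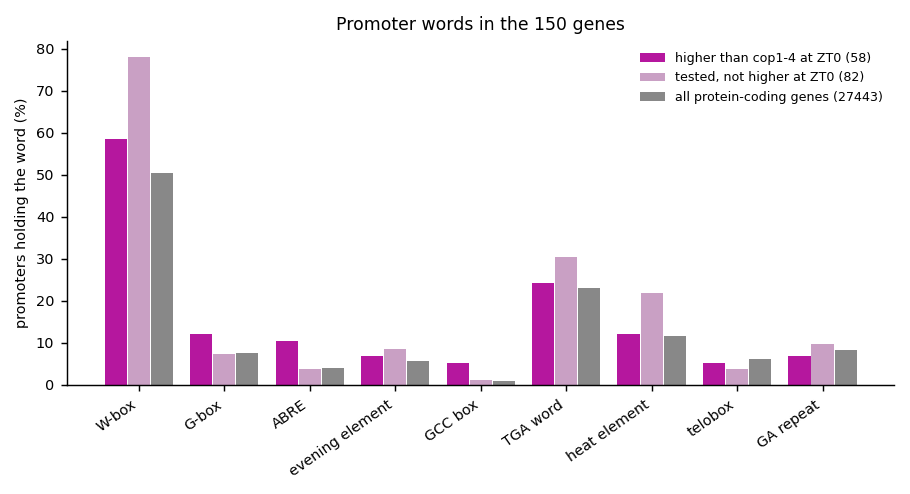
Bars give the percentage of promoters (250 bases before to 50 after the start) that hold each word, for 58 genes higher than cop1-4 at ZT0, 82 tested genes that were not, and all 27443 protein-coding genes. The W-box stands at 58.6%, 78.0% and 50.5%.

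WRKY40 and WRKY30 are defence-induced WRKY factors. WRKY40 read 21.9, 27.5 and 14.7 CPM in vil1-1 cop1-4 at ZT6, 10.9, 9.33 and 6.07 in cop1-4, 0.861, 1.2 and 0.924 in vil1-1 and 0.565, 0.530 and 0.678 in Col-0, with no overlap between cop1-4 and vil1-1 cop1-4. At ZT0 it read 6.59, 6.24 and 7.74 CPM in vil1-1 cop1-4 and 8.88, 6.31 and 6.53 in cop1-4 (log2 fold change -0.07 ± 0.17 SE, edgeR adjusted p = 0.844), both above Col-0 (2.80, 1.72 and 2.42). FRK1, a receptor-like kinase that marks the response to bacterial flagellin, showed 20.2, 21.4 and 32.7 CPM in vil1-1 cop1-4 and 12.8, 14.8 and 12.5 in cop1-4 at ZT6. At ZT0 it read 10.8, 6.50 and 9.10 in vil1-1 cop1-4 and 12.03, 7.15 and 6.91 in cop1-4, where the lines overlap (log2 fold change 0.02 ± 0.20 SE, edgeR adjusted p = 0.976). The pattern-triggered list of 44 genes had 2 genes in the set, FRK1 and WAKL10. At ZT0 5 of 36 tested were higher and 8 lower than in cop1-4, beside 10.1% and 7.44% of all tested genes.

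The salicylate and systemic defence list of 36 genes gave 5 genes of the set: SAG13, LURP1, PNP-A, RLP23 and PR5. At ZT0, of 29 tested, 3 were higher and 9 lower in vil1-1 cop1-4 than in cop1-4, beside 10.1% and 7.44% of all tested genes. SAG13, RLP23 and PR5 were not past the test, and LURP1 and PNP-A were not tested. SAG13, a short-chain dehydrogenase of senescence and defence, had an excess of 1.83 at ZT6, where it read 6.22, 9.56 and 8.20 CPM in vil1-1 cop1-4, 1.26, 2.82 and 1.63 in cop1-4 and 0.505, 0.398 and 0.258 in Col-0. At ZT0 the lines with cop1-4 overlapped, at 4.64, 4.56 and 6.38 CPM in vil1-1 cop1-4 and 5.56, 5.30 and 5.92 in cop1-4 (log2 fold change -0.11 ± 0.18 SE, edgeR adjusted p = 0.741), and Col-0 was below them (2.99, 3.96 and 3.27). The libraries of Col-0 and cop1-4 were thus lower at ZT6 than at ZT0, and those of vil1-1 cop1-4 mostly higher. PR5, a thaumatin-like protein induced by salicylate, was higher at ZT6 than ZT0 in every line, from 0.635, 0.603 and 0.521 to 4.70, 5.22 and 6.85 CPM in Col-0. In vil1-1 cop1-4 it went from 2.01, 1.61 and 1.69 to 23.4, 24.6 and 12.3, where replicate 3 lay close to cop1-4 (10.9, 11.6 and 11.7).

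Of the 18 genes on the camalexin and indole defence list, MYB51, CYP71A12 and GSTF6 were in the set. At ZT0 vil1-1 cop1-4 was higher than cop1-4 for 3 and lower for 3 of 18, beside 10.1% and 7.44% of all tested genes. CYP71A12, a cytochrome P450 of indole-3-acetonitrile formation, read 14.6, 14.3 and 13.6 CPM in vil1-1 cop1-4 at ZT0, 39.1, 20.5 and 14.8 in cop1-4 and 55.6, 62.8 and 61.1 in Col-0. At ZT6 it read 35.8, 43.3 and 34.1 in vil1-1 cop1-4, 18.6, 21.3 and 15.4 in cop1-4 and 11.4, 16.8 and 13.1 in Col-0. Its level in vil1-1 cop1-4 was thus below that of every other line at ZT0 and above every other line at ZT6. At ZT0 cop1-4 replicate 1 stood above the other cop1-4 libraries, and the log2 fold change against cop1-4 was -0.77 ± 0.34 (SE; edgeR adjusted p = 0.166). MYB51, the activator of indole glucosinolate synthesis, read 29.7, 35.2 and 25.4 CPM in vil1-1 cop1-4 at ZT6 and 14.3, 16.2 and 13.3 in cop1-4. GSTF6, a glutathione transferase and the most abundant gene of the set, held 414, 509 and 433 CPM in vil1-1 cop1-4, 228, 288 and 231 in cop1-4, 17.45, 31.0 and 24.6 in vil1-1 and 36.4, 33.2 and 30.0 in Col-0 at ZT6. At ZT0 it was at 112, 76.9 and 99.5 CPM in vil1-1 cop1-4 and 249.7, 142 and 123 in cop1-4, again with cop1-4 replicate 1 apart (log2 fold change -0.83 ± 0.26 SE, edgeR adjusted p = 0.0511). The other glutathione transferases GSTU11, GSTU12 and GSTF3 reached 3.298 ± 1.00, 3.88 ± 0.877 and 8.39 ± 1.71 CPM. GSTU11 and GSTU12 are adjacent and similar genes. Of the 3 only GSTU11 was past the test against cop1-4 at ZT0 (log2 fold change 0.96 ± 0.32 SE, edgeR adjusted p = 0.0346), a call lost without cop1-4 replicate 2 or 3, or vil1-1 cop1-4 replicate 1 or 3.

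A cluster of lipid-transfer proteins on chromosome 4 supplied neighbouring genes: AZI1, EARLI1, AT4G12490 and AT4G12500, small proline-rich proteins of which AZI1 primes systemic immunity. They are similar in sequence, and reads aligned to more than 1 place were left out, so their levels are uncertain. AZI1 held 282, 325 and 419 CPM in vil1-1 cop1-4 at ZT6, 166, 187 and 100.4 in cop1-4, 73.6, 66.0 and 69.1 in vil1-1 and 66.9, 51.1 and 50.9 in Col-0. EARLI1 held 216, 189 and 235 CPM in vil1-1 cop1-4 at ZT6, 99.8, 117 and 64.5 in cop1-4, 8.02, 8.07 and 5.10 in vil1-1 and 34.0, 13.3 and 14.4 in Col-0, and Col-0 replicate 1 stood above its companions. In AT4G12490 the lines were furthest apart, with 117, 82.4 and 89.9 CPM in vil1-1 cop1-4, 27.2, 48.5 and 26.6 in cop1-4 and 0.117, 0.360 and 0.321 in vil1-1 at ZT6; at ZT0 vil1-1 had 0 reads of it. At ZT0 AZI1 was higher than cop1-4 (log2 fold change 1.03 ± 0.22 SE, edgeR adjusted p = 0.00766), a call lost with only these lines in the fit (edgeR adjusted p = 0.0807), and EARLI1 was not past the test (log2 fold change -0.41 ± 0.36 SE, edgeR adjusted p = 0.503). AT4G12500 was lower, a call lost without any of the cop1-4 libraries or vil1-1 cop1-4 replicate 2, with DESeq2 and with the replicate block. vil1-1 alone had less EARLI1 than Col-0 at ZT0, 1.69, 2.04 and 2.16 against 8.14, 15.9 and 3.09 CPM (log2 fold change -2.17 ± 0.60 SE, edgeR adjusted p = 0.0434). Col-0 varied widely and the call was lost without any of these 6 libraries but Col-0 replicate 3.

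The 7 genes lower than in cop1-4 at ZT0 stood above it at ZT6, as every gene of the set did by the rule of choice. Nothing is therefore read from the ZT6 side of this order. They make up 4.67% of the set, beside 7.44% of all tested genes called lower. With only these lines in the fit, the lower calls of AT5G41750, AT1G26380, XBAT34 and AT4G20000 were lost (edgeR adjusted p = 0.0590, 0.125, 0.108 and 0.0852), and those of CCR4, AT1G26420 and AT4G12500 were kept. AT1G26380 was also lost without vil1-1 cop1-4 replicate 2, and XBAT34 and AT4G20000 without cop1-4 replicate 1 or either of 2 vil1-1 cop1-4 libraries. AT5G41750, which encodes a TIR-type immune receptor, read 2.01, 1.68 and 1.19 CPM in vil1-1 cop1-4 at ZT0, 17.2, 6.59 and 6.11 in cop1-4 and 17.63, 17.9 and 19.2 in Col-0, with cop1-4 replicate 1 well above its companions. At ZT6 it read 6.05, 8.76 and 6.68 in vil1-1 cop1-4, 3.43, 4.00 and 4.29 in cop1-4 and 1.78, 2.25 and 2.58 in Col-0. AT1G26380, a berberine bridge-like FAD enzyme that oxidises indole defence compounds, read 14.7, 9.23 and 10.4 CPM in vil1-1 cop1-4 and 41.4, 20.1 and 21.9 in cop1-4 at ZT0. At ZT6 it read 45.9, 66.9 and 43.2 in vil1-1 cop1-4 and 26.1, 29.7 and 25.9 in cop1-4. Its relative AT1G26420 read 6.53, 6.54 and 7.63 CPM in vil1-1 cop1-4 and 20.1, 13.5 and 13.6 in cop1-4 at ZT0. At ZT6 it read 29.1, 35.3 and 26.2 in vil1-1 cop1-4 and 14.6, 20.3 and 17.3 in cop1-4. In both genes the order of the lines differed between the times, with the ZT6 order set by the choice of genes. CCR4, a receptor kinase related to maize CRINKLY4, and AT4G20000, a VQ motif protein, were likewise below cop1-4 at ZT0 and above it at ZT6. At ZT6 they stood at 1.53 ± 0.431 and 5.53 ± 0.491 CPM in vil1-1 cop1-4 and 0.552 ± 0.282 and 2.66 ± 0.0451 in cop1-4.

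Several abundant wall and defence proteins did not differ from cop1-4 beyond the threshold at ZT0. AT5G39580, a class III peroxidase, read 101, 115 and 149.9 CPM in vil1-1 cop1-4 at ZT6, 60.9, 62.8 and 50.9 in cop1-4 and 15.9, 12.3 and 10.9 in Col-0. At ZT0 it read 72.5, 59.1 and 78.2 in vil1-1 cop1-4 and 104, 53.3 and 60.6 in cop1-4 (log2 fold change -0.04 ± 0.23 SE, edgeR adjusted p = 0.936). The chitinase-family gene AT2G43620 stood at 122 ± 14.0 CPM in vil1-1 cop1-4 and 53.4 ± 15.1 in cop1-4 at ZT6, and the lectin gene AT3G16530 at 112 ± 23.2 and 52.6 ± 3.47. Among receptors and their relatives, RLP23, which recognises a peptide of necrosis-inducing microbial proteins, read 1.16, 0.594 and 1.11 CPM in vil1-1 cop1-4 at ZT6 and 0.338, 0.308 and 0.187 in cop1-4. PDF1.4, a defensin-like protein, read 18.0, 21.1 and 17.57 CPM in vil1-1 cop1-4 and 7.87, 12.8 and 8.59 in cop1-4 at ZT6 and 0.773, 0.486 and 0.646 in Col-0. CAF1a, a deadenylase that shortens mRNA tails, was higher than cop1-4 at both times, at 8.31, 9.46 and 11.4 against 4.76, 6.98 and 6.06 CPM at ZT0 and 43.1, 44.0 and 34.2 against 28.3, 23.1 and 16.6 at ZT6. AT1G15010, annotated by RefSeq as a subunit of the mediator complex, had an excess of 1.57 and held 4.08 ± 0.542 CPM in vil1-1 cop1-4 at ZT6; at ZT0 it was higher than in cop1-4 by 1.39 ± 0.25 (SE; edgeR adjusted p = 8.93e-05). MES18, a methyl esterase, held 8.16 ± 1.55 CPM at ZT6 and was higher than in cop1-4 at ZT0 by 1.54 ± 0.32 (SE; edgeR adjusted p = 0.00116).

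**Figure D4:**
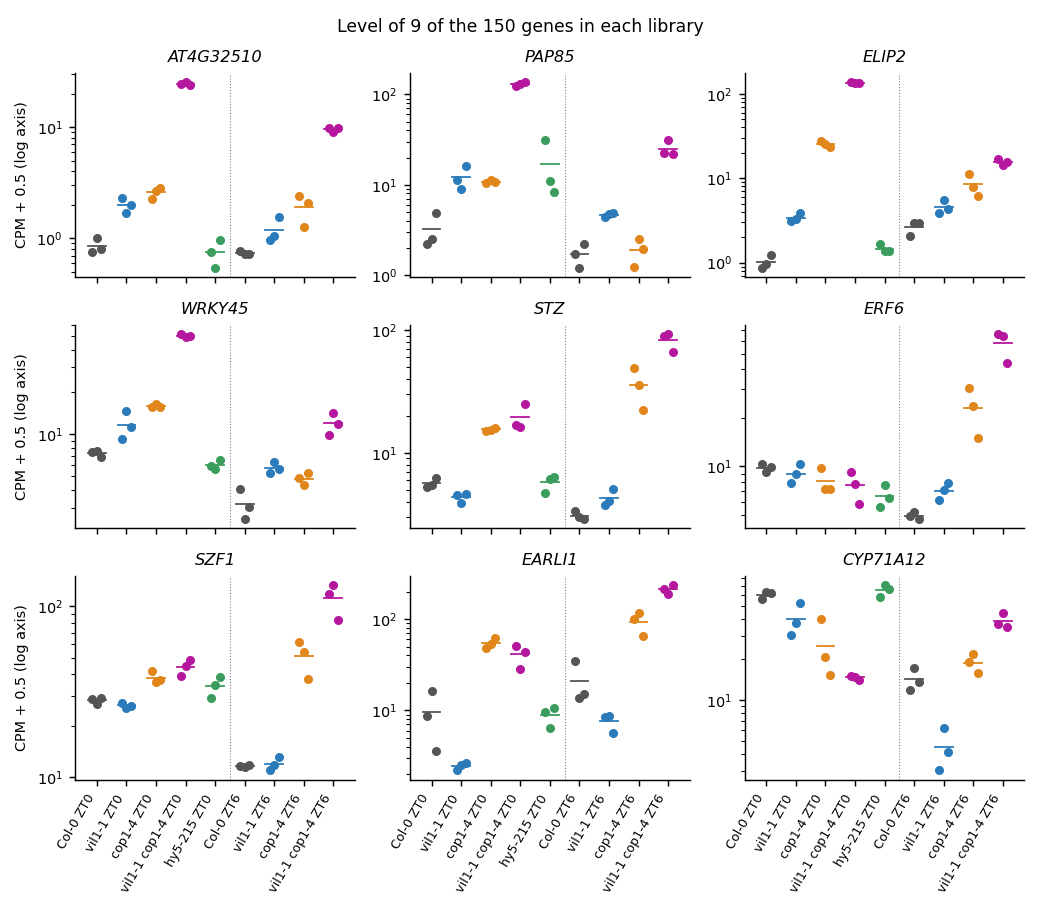
Points are libraries, coloured by line, and short lines group means, for 9 genes; the vertical axis is CPM + 0.5 on TMM-scaled library sizes on a log axis, and the dotted line separates ZT0 from ZT6. AT4G32510, PAP85, ELIP2 and WRKY45 lie above the other lines in vil1-1 cop1-4 at ZT0 and ZT6, and ERF6, SZF1, EARLI1 and CYP71A12 do so at ZT6 and overlap another line or lie below it at ZT0. STZ lies well above at ZT6 and only just above cop1-4 at ZT0. At ZT0 CYP71A12 is at 14.6, 14.3 and 13.6 CPM in vil1-1 cop1-4.

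Seed genes appear in the set through PAP85, SESA2 and M10. SESA2, a seed storage albumin, had 40 reads in the 3 vil1-1 cop1-4 libraries at ZT6 and 0 in those of cop1-4 and vil1-1, a level of 0.342, 0.248 and 0.773 CPM. M10, a late embryogenesis protein, read 5.16, 4.19 and 6.16 CPM in vil1-1 cop1-4 at ZT0, 1.43, 2.18 and 1.503 in cop1-4, 3.55, 2.82 and 1.91 in vil1-1 and 0.299, 0.344 and 0.0744 in Col-0. On the list of 17 seed storage and embryo markers, 11 were tested at ZT0. Of these, 5 were higher and 0 lower in vil1-1 cop1-4 than in cop1-4, beside 10.1% and 7.44% of all tested genes. The median log2 fold change was 3.27. Against vil1-1, 1 was higher and 6 lower (median -1.41), beside 32.6% and 36.4%. Against Col-0, 3 were higher and 3 lower (median 0.41), beside 33.6% and 35.6%. In cop1-4, 1 marker was higher and 6 lower than in Col-0 (median -3.30), beside 33.2% and 36%. The summed level of that list at ZT6 was 1448 to 1671 CPM in vil1-1 cop1-4, 1501 to 1717 in cop1-4 and 757 to 803 in Col-0. At ZT0 it was 2335 to 2525, 2063 to 2428 and 446 to 462. In cop1-4 the ZT0 sum was thus above Col-0 although 6 markers were lower, since a sum follows its most abundant genes. Between vil1-1 cop1-4 and cop1-4 the sums overlapped at both times. The part of these markers in the values of PAP85, SESA2 and M10 was not tested. None of the 36 genes on the drought and abscisic acid list was in the set. Of 35 tested at ZT0, 18 were higher and 0 lower than in cop1-4, beside 10.1% and 7.44% of all tested genes. Against vil1-1, 5 were higher and 24 lower, and against Col-0 7 and 17. In cop1-4, 5 genes of this list were higher and 24 lower than in Col-0. Of the 36, 1 had all vil1-1 cop1-4 libraries above the others at ZT6 on plain CPM, beside 3.44% of all genes with a read. Genes of meiosis and of reproductive tissue were a further kind, chosen for mention after their values were seen. SHOC1, needed for meiotic crossovers, read 3.04, 3.55 and 2.49 CPM in vil1-1 cop1-4 and 1.32, 0.670 and 1.22 in cop1-4 at ZT0 (log2 fold change 1.51 ± 0.30 SE, edgeR adjusted p = 3.35e-04), and PAB5, a poly(A)-binding protein mostly of reproductive organs, 2.92, 2.77 and 4.01 in vil1-1 cop1-4 and 0.688, 0.837 and 0.141 in cop1-4, both higher than in cop1-4. No gene of the 13 pollen, anther and ovule markers passed the filter at ZT0, and their summed level was at most 0.570 CPM in any library.

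Parts of the set differed from Col-0 in the single mutants too at ZT0. In cop1-4, 84 genes were higher and 13 lower than in Col-0, beside 33.2% and 36% of all tested genes, and 65 and 29 with plain totals. Of all genes called in that comparison, 18.3% were higher with plain totals and 47.9% with TMM. In vil1-1, 22 were higher and 5 lower than in Col-0, beside 6.02% and 4.92%, the same counts under both scalings. Without vil1-1 replicate 1 the lower count was 0, without either Col-0 replicate 1 or 2 it was 1, and without vil1-1 replicate 2 it was 2. ELIP2, M10, AT4G32510, XTH25, AGO3 and AT3G21351 were among those higher in vil1-1, with log2 fold changes of 2.44, 3.54, 2.08, 1.18, 1.296 and 1.49. SAG13, AIG1, EARLI1, PR5 and AT4G20000 were lower, and each of these calls was lost when 1 or more of the libraries was left out, vil1-1 replicate 1 among them for all 5. In hy5-215, 37 were higher and 12 lower than in Col-0, beside 20.6% and 19%, and 31 and 22 with plain totals, which moved the median of all genes by -0.15. Of all genes called in hy5-215, 25.9% were higher with plain totals and 52.1% with TMM. The hy5-215 libraries stood apart from the other 24, with 90.8 to 92.6% of their reads in genes against 93.9 to 96.2%, and 2.16 to 2.89% of reads outside annotated features against 0.586 to 1.12%. The labels name no batch, so that a difference in preparation or sequencing cannot be told apart from the genotype in any hy5-215 value. PRX52, a peroxidase, was the furthest above Col-0, at 1.98, 2.47 and 3.54 CPM in hy5-215 against 0.0747, 0.0861 and 0 in Col-0 and 1.32, 1.495 and 1.69 in vil1-1 cop1-4 (log2 fold change 5.54 ± 0.52 SE, edgeR adjusted p = 4.25e-11). AACT1, which RefSeq annotates as an anthocyanin acyltransferase, was lower in hy5-215. It read 0, 0.233 and 0.216 against 0.784, 0.861 and 0.372 CPM in Col-0 (log2 fold change -2.21 ± 0.51 SE, edgeR adjusted p = 6.22e-04).

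Whether the vil1-1 effect at ZT0 differed between the cop1-4 and wild-type backgrounds was tested by the interaction of both alleles. It was past the threshold with a larger value in cop1-4 for 21 genes of the set and a smaller one for 5, beside 4.52% and 3.35% of all tested genes. For AT5G42530, VIM4, AT4G18490 and WRKY45 the vil1-1 effect was larger in cop1-4 by 2.99 ± 0.37, 2.22 ± 0.38, 2.03 ± 0.33 and 0.97 ± 0.16 on the log2 scale (SE). STZ and CBF2 were on the same side, by 0.74 ± 0.21 (SE; edgeR adjusted p = 0.0222) and 1.46 ± 0.41 (SE; edgeR adjusted p = 0.0194). The calls of STZ (without Col-0 replicate 3, vil1-1 replicate 2 or vil1-1 cop1-4 replicate 3) and CBF2 (without Col-0 replicate 1 or 2, vil1-1 replicate 1, or vil1-1 cop1-4 replicate 2 or 3) were lost with fewer libraries. The smaller effects were those of AT1G75490, AT3G21351, M10, AT1G26420 and AGO3. AGO3, a small-RNA-binding Argonaute, read 2.99, 3.19 and 2.38 CPM in Col-0, 7.21, 7.20 and 6.46 in vil1-1, 11.9, 12.4 and 11.1 in cop1-4 and 18.0, 18.6 and 17.3 in vil1-1 cop1-4. Each allele went with a higher level, and the sum of both effects on the log2 scale exceeded that of the line with both. This call was lost without Col-0 replicate 3, vil1-1 replicate 1 or cop1-4 replicate 2.

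Genes with less known roles were also among those with the largest excess. AT4G22470, annotated by RefSeq in the family of lipid transfer proteins, read 23.2, 24.8 and 37.0 CPM in vil1-1 cop1-4 and 12.5, 10.1 and 6.39 in cop1-4 at ZT6. At ZT0 the values were 19.1, 11.7 and 19.9 and 8.37, 4.35 and 8.36, and the libraries of the pair of lines did not overlap (log2 fold change 1.25 ± 0.27 SE, edgeR adjusted p = 0.00678). This call was lost with only the groups of that contrast in the fit (edgeR adjusted p = 0.0784). AT3G02840, an ARM repeat protein, stayed low, at 2.12, 4.85 and 1.79 CPM in vil1-1 cop1-4 and 0.821, 0.871 and 0.327 in cop1-4 at ZT6, and was not past the test at ZT0 (log2 fold change -0.75 ± 0.45 SE, edgeR adjusted p = 0.279). AT4G24110, which RefSeq annotates as a glutamate dehydrogenase, read 8.14, 10.8 and 8.17 CPM and 3.14, 3.43 and 2.24 at ZT6 and was not past it either (log2 fold change 0.33 ± 0.48 SE, edgeR adjusted p = 0.713). AT5G23700, a coiled-coil protein, AT2G29370, a Rossmann-fold protein, and AT5G17350, an uncharacterised protein, were higher than in cop1-4 at ZT0, by 1.21 ± 0.17 (SE; edgeR adjusted p = 1.08e-06), 1.13 ± 0.13 (SE; edgeR adjusted p = 7.12e-08) and 0.60 ± 0.12 (SE; edgeR adjusted p = 4.37e-04) on the log2 scale. AT5G19240, a GPI-anchored glycoprotein precursor, read 22.7, 24.6 and 31.2 CPM in vil1-1 cop1-4 and 30.3, 24.6 and 23.4 in cop1-4 at ZT0, where they overlap (log2 fold change 0.02 ± 0.10 SE, edgeR adjusted p = 0.951). AT3G02840, AT4G22470 and AT5G23700 overlap another annotated gene.

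The 150 genes comprised 149 protein-coding genes and 1 pseudogene. They lay on all 5 chromosomes, 49 on chromosome 1 and 25 to 26 on each of the others; 8 had another gene of the set as their direct neighbour (AZI1 and EARLI1, GSTU11 and GSTU12, AT1G69710 and HO3, AT1G72910 and AT1G72920). WRKY factors made up 2% of the set against 0.262% of protein-coding genes, EF-hand and calmodulin-like calcium sensors 3.33% against 0.182%, VQ motif proteins 2% against 0.106%, glutathione transferases 2.67% against 0.164% and TIR domain proteins 2.67% against 0.477%. Uncharacterised proteins made up 11.3% against 10.7%. These families were picked after the set was seen and are given as shares only. In all, 28 genes, among them FRK1, WRKY40, EARLI1, AT4G12490, SHOC1 and ORA47, overlap another annotated gene. Each library had 0.690 to 0.993% of its reads set aside as ambiguous. The strand setting of the counting is not given. Reads in a shared stretch may therefore be missing from these counts or counted for the partner.

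Markers of other cell types differed between lines as well: cell cycle and meristem markers summed to 326 to 373 CPM in Col-0, 99.4 to 142 in cop1-4 and 111 to 128 in vil1-1 cop1-4 at ZT6. Root markers summed to 175 to 179.6, 124 to 130.4 and 139.9 to 148. Stomatal lineage markers summed to 139.9 to 152, 143 to 152 and 127 to 136 CPM, and guard-cell, trichome and mesophyll markers to 32326 to 33602, 38409 to 40656 and 38125 to 45839.6. A sum follows its most abundant genes. Of the 8 guard-cell, trichome and mesophyll markers tested at ZT0, 2 were higher and 5 lower in vil1-1 cop1-4 than in Col-0. Their median log2 fold change was -0.78, and 33.6% and 35.6% of all tested genes were called. In cop1-4, 2 were higher and 4 lower (median -0.37), beside 33.2% and 36%. Between cop1-4 and vil1-1 cop1-4 the cell cycle sums overlapped at ZT6 and the root sums did not; their part in the values of the set was not tested.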

How the data were processed

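Per the labels' protocols, whole-seedling RNA was extracted with an RNeasy kit and made into NEBNext Ultra Directional libraries; per the submitters' processing notes, FastQC, STAR, edgeR and TAIR10 were used, while versions, the counting tool and its strand setting are not given in the sources used here. The values deposited by the authors are raw read counts per gene, 1 table per library. Rows that name no gene (3.76 to 9.18% of the reads in a table, reads aligned to more than 1 place among them) were left out. Library sizes were scaled by TMM. The 15 libraries of ZT0 were fitted together with edgeR 4.0.16 (R 4.3.3), after filterByExpr, with 1 coefficient per group and 10 residual degrees of freedom. Quasi-likelihood p-values were Benjamini-Hochberg adjusted over 21027 genes, with a threshold of 0.05. Each SE was calculated back from the test, as the absolute log2 fold change divided by the square root of the F statistic. Replicates are numbered in the labels, with no word on whether each was a separate culture; the p-values rest on the variation among these libraries, which may be technical. Tests were checked on simulated counts. The genes, the gene lists and the rules were chosen with earlier results of these data known. Genes named are the 20 with the largest excess and those on a list. Up to 15 of the most abundant ones called higher than Col-0, vil1-1 and cop1-4 at ZT0 were added. So were up to 5 per direction and comparison with the smallest p, up to 8 lower ones and 5 on either side of the boundary. The 5 most abundant genes and families were named too, and others were chosen after their values were seen. Alternatives were other scalings, filters, DESeq2 1.42.0, other groups in the fit, a replicate block and leaving out libraries. Promoters and gene names come from RefSeq TAIR10.1; the deposited tables hold gene identifiers of which 31912 matched it. Intervals and floors cover counting error only.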

Additional observations from a re-analysis of the deposited data

Results flagged for a closer look

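The vil1-1 effect at ZT0, vil1-1 cop1-4 against cop1-4 set against vil1-1 against Col-0, differed between the backgrounds by the edgeR interaction term for some of the genes. It was larger in the cop1-4 background for 21 and smaller for 5, beside 4.52% and 3.35% of all tested genes. The 5 make up 3.33% of the set, which is close to the share of all genes. The difference on the log2 scale was 2.99 for AT5G42530, 2.22 for VIM4, 2.03 for AT4G18490 and 0.97 for WRKY45, a transcription factor. It was -1.94 for M10, -1.07 for AT3G21351, -0.77 for AT1G75490, which encodes an AP2/ERF-type protein, -0.77 for AT1G26420 and -0.67 for AGO3. Leaving out 1 of the 12 libraries at a time gave 14 to 22 larger and 4 to 7 smaller effects. For all genes the ranges were 736 to 993 and 490 to 730.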

How the results depend on the processing

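Membership depended on the pseudocount: of the 150 genes, 110 remained with 0.1, 133 with 1 and 91 with 5; 135 remained on TMM-scaled CPM, 124 with group medians, 123 among genes of at least 1 CPM, and 124 to 149 when 1 library of ZT6 was left out. Of 302 log2 fold changes of named genes past the threshold at ZT0, tried under 4301 alternatives in all, 4071 kept direction and call, 224 kept direction only and 6 turned, all with plain library totals, which were added after seeing the data. With plain totals, AT1G15010 (-0.033) and AT3G21351 (-0.0275) turned against Col-0 and AT1G75490 (-0.1045) and AT3G56880 (-0.0201) against vil1-1 in vil1-1 cop1-4, and SZF1 (-0.133) and AT3G56880 (-0.0595) in cop1-4. Under that scaling 24 genes of the set were lower in vil1-1 cop1-4 than in Col-0 (all genes 3255 higher, 14038 lower), 26 than in vil1-1 (3195 and 14098), 29 were lower in cop1-4 than in Col-0 (3167 and 14166) and 22 in hy5-215 (2485 and 7123). The 59 genes higher than cop1-4 numbered 48 to 63 over these alternatives, and 49 to 58 with 1 library left out (all genes 2120, then 1603 to 1974 with 1 left out). The 7 lower ones numbered 3 with only the 2 groups fitted, and 3 to 8 with 1 library left out (all genes 1564, then 1075 to 1470 with 1 left out). The 5 genes lower in vil1-1 than in Col-0 numbered 2 among genes of at least 1 CPM and 0 to 6 with 1 library left out (644 to 954 for all genes). Same-numbered libraries did not deviate together (r -0.12 to 0.08 over 30 pairs; 1 of 15 libraries correlated best with its own number), so the numbers do not pair them; with the replicate block, 61 genes were higher and 6 lower than cop1-4, and 2 lower in vil1-1 than in Col-0. The causes were not tested. At this depth 9 of the 150 genes had too few reads at ZT0 to be tested.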
